A study of Homo sapiens with 30 samples.

Results

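Anterior neural ectoderm of day 2 (aNE) was compared with the same lineage after it had been moved into midbrain medium and harvested at day 4 (aNE_M), by the positions of its open chromatin. The members are stretches of chromosomes 1 to 22, called regions here, made by merging the ATAC-seq peaks of all 10 peak lists of the series wherever they overlapped by 1 bp or more. A list was called open at a region where it had a peak. Of 476170 merged regions, 226749 were open in aNE or aNE_M, and these are the members. They fell into 74499 gained regions (open in aNE_M and not in aNE, 32.9% of the members), 27939 lost regions (open in aNE and not in aNE_M, 12.3%) and 124311 kept regions, open in both.

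The cells were wild-type H1, an established human embryonic stem cell line, so every value stands for 1 line. They spent day 1 in definitive ectoderm (DE) medium, CDM2 with A8301 at 1 µM, trametinib at 250 nM, C59 at 1 µM and LDN193189 at 100 nM. They were then replated for day 2 in anterior neural ectoderm medium, which held A8301 at 1 µM, LDN193189 at 100 nM, C59 at 1 µM and, for survival after passaging, thiazovivin at 1 µM. A8301 blocks NODAL and activin receptors, LDN193189 blocks BMP receptors, trametinib blocks MEK, and C59 blocks the secretion of WNT proteins. The aNE_M cells then stayed in midbrain medium until day 4, and the recipe of that medium is not given in the sources used here. Per the labels, aNE and pNE cells harvested at day 2 had been plated at 37500 per cm2. For longer cultures the labels give 75000 per cm2 after aNE medium, with the forebrain fate as their example, and 150000 per cm2 after pNE medium, with the hindbrain fate as theirs. If the aNE_M cells were plated at 75000 per cm2, day, medium and plating density cannot be told apart in this comparison. The other lists used here are undifferentiated cells of day 0 (hPSC), DE of day 1, posterior neural ectoderm of day 2 (pNE, made with TTNPB, a retinoid receptor agonist, with FGF2, and with the tankyrase inhibitor XAV939 in place of C59), and day 4 cells that went from aNE or pNE into telencephalon, midbrain or hindbrain medium (names ending in _T, _M and _H).

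Each group had 3 replicate libraries of 50000 cells, and 1 peak list per group was analysed here, with positions alone and no peak height, score or depth. The comparison therefore has no replicate error and no test. Intervals printed with shares are Wilson 95% intervals. They cover the counting of regions and not the spread between cultures. The aNE list held 162041 peaks on chromosomes 1 to 22 with a median width of 309 bp, and aNE_M held 211358 with a median of 285 bp. Because the length of a list moves such counts, most were repeated with every list reduced to its 162041 widest peaks, called equal size or size-matched below. That left the aNE list whole and cut aNE_M to peaks of 179 bp or more. A kept region whose aNE_M peak was cut then counts as lost. Lists of equal length give near-equal totals of gained and lost regions by construction, so that balance is not a result. Some values come from the lists as deposited alone. Among them are peak widths, distances to the other list's peaks, shares by chromosome and the open regions of each list around a gene.

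The early neural plate is divided along its length by signals from local centres. At the border of midbrain and hindbrain, the isthmus, cells make FGF8 and WNT1, and the transcription factors EN1, EN2, PAX2, PAX5 and PAX8 are active around it. OTX2 marks the forebrain and midbrain side and GBX2 the hindbrain side, while HOX genes are active further back. WNT signalling acts through TCF and LEF factors and switches on its own feedback genes, among them AXIN2 and NKD1. ATAC-seq uses the Tn5 transposase to mark DNA that is not packed into nucleosomes, mostly promoters and enhancers, and it measures neither binding of a given factor nor expression.

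Few start sites changed. Among 15101 protein-coding genes with a start site in the RefSeq promoter table (GRCh38.p14), the window from 250 bases before to 50 bases after the start was gained at 271 genes (1.79%), lost at 114 (0.755%), kept at 11397 and open in neither list at 3319. At equal list size, which brings the totals of gained and lost regions close together, it was gained at 182 genes and lost at 180. Of the genes in the 14 lists described below, TUBB3 (a neuronal tubulin) and NR2F2 (a nuclear receptor) gained an open start, and NANOG, HOXB1, NKX2-1 and LMX1B lost one. The NR2F2 peak was 139 bp wide and was not in the lists of equal size, and the LMX1B peak was 125 bp wide and open in aNE alone. The start given for NR2F2 lay inside the gene, which spans chr15:96326046-96340263 on the plus strand. The 150 bases before that start were at chr15:96332415-96332564, so its value is not one for the 5′ end of the gene. The 150 bases before the start are shown for 3 of these genes, because their start sites opened or closed between day 2 and day 4. They read 5′ to 3′ on the strand of the gene, from RefSeq (GRCh38.p14), with exact matches to the 24 searched motifs in capitals. For NANOG they lie at chr12:7789252-7789401 on the plus strand, for HOXB1 at chr17:48531012-48531161 on the minus strand and for TUBB3 at chr16:89921775-89921924 on the plus strand.
NANOG: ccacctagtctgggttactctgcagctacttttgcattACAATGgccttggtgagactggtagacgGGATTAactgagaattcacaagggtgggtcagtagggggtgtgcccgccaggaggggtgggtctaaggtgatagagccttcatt
HOXB1: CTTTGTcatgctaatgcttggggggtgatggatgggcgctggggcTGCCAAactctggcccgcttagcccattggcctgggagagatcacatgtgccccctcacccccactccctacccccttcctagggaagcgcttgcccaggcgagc
TUBB3: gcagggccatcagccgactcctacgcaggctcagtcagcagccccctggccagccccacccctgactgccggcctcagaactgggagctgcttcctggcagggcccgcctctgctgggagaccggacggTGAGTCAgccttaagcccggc

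NANOG, a core pluripotency factor, had an aNE peak of 296 bp within chr12:7788757-7789442, which spans its start. That region was open in hPSC, DE, aNE, pNE and aNE_T, and closed in aNE_M, aNE_H and all 3 day 4 lists that came from pNE. The capitals in the NANOG sequence mark ACAATG, a SOX-type motif found in 7.96% of all 15101 windows on either strand, and GGATTA, the reverse complement of TAATCC, a bicoid-type motif of the OTX and GSC factors found in 5.38%. HOXB1, the HOX gene of rhombomere 4 in the hindbrain, had an aNE peak of 356 bp within chr17:48530405-48531518. It was open in hPSC, DE, aNE, pNE and the 3 lists that followed from pNE, and closed in all 3 lists that followed from aNE. Its capitals mark CTTTGT, the reverse complement of the SOX-type motif ACAAAG (12.7% of all windows), and TGCCAA, the reverse complement of the NFI half-site TTGGCA (10.7%). The start of TUBB3 was under a 242 bp aNE_M peak within chr16:89921710-89922019 and was open also in hPSC, pNE, aNE_H and pNE_M. Its capitals mark TGAGTCA, a match to TGANTCA, the AP-1 motif (5.70%). A match is a string of letters and does not show that a factor was bound.

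The starts that changed were poorer in CpG than those open in both lists. The median window held 5 CpG pairs among gained starts, 6 among lost starts and 27 among kept starts, at a median GC content of 53.7%, 56.8% and 66.0%. Motif shares differed between these classes. The E-box CAGATG, bound by proneural factors, was in 24.4% of gained, 14.9% of lost and 8.79% of kept windows, in 20.4% of windows open in neither list, and in 11.7% of all windows. The ETS motif CCGGAAG, common at CpG island promoters, was in 2.95% of gained, 4.39% of lost and 17.9% of kept windows. It was in 3.4% of windows open in neither list and in 14.4% of all windows. The searched forms of the TCF and LEF motif did not go one way. CTTTGAA was in 6.27% of gained, 2.63% of lost and 7.02% of windows open in neither list, against 3.64% of all, while CTTTGAT was in 1.84% of gained and 5.26% of lost windows, against 1.90% of all. The 114 lost windows make each of their shares coarse, and GC content moves with all of these shares. Its part in them was not tested.

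Gained regions had mostly been closed in DE, and lost regions mostly open there. Of the gained regions 32.8% (32.4 to 33.1) were open in DE and 27.2% in hPSC, while of the lost regions 72.0% (71.5 to 72.5) were open in DE and 49.9% in hPSC. Kept regions were open in DE in 93.3% of cases. In pNE, cells of the same day that had seen retinoid and FGF agonists, the order was the opposite, with 52.0% (51.7 to 52.4) of gained regions open against 35.8% of lost ones. Among all merged regions 46.9% were open in DE and 39.2% in pNE, so gained regions lay below that level in DE and above it in pNE. Size-matching left both contrasts in place. It gave 18.5% of 43178 gained and 53.7% of 41005 lost regions open in DE, and 50.0% of gained and 33.0% of lost regions open in pNE.

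The same division ran through the day 4 lists that came from pNE. In pNE_M, which had been in the same midbrain medium, 43.9% of gained and 21.9% of lost regions were open. In pNE_T the shares were 37.5% and 29.6%, and in pNE_H they were 67.1% and 38.3%. Among all merged regions 41.0% were open in pNE_M, 41.3% in pNE_T and 61.0% in pNE_H. The pNE_H list is the longest of the series, and with lists of equal size its shares were 44.1% of gained and 21.0% of lost regions. After size-matching pNE_M held 39.98% of gained and 20.4% of lost regions, and pNE_T 32.8% and 26.3%. Of all merged regions 43.7% were then open in pNE_M, 44.5% in pNE_T and 45.4% in pNE_H. Gained regions lay below that level in each of these lists at equal size, and in pNE_T as deposited too. Gained and lost regions were thus further apart in pNE_M and pNE_H than in pNE_T in both versions of the lists.

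**Figure D1:**
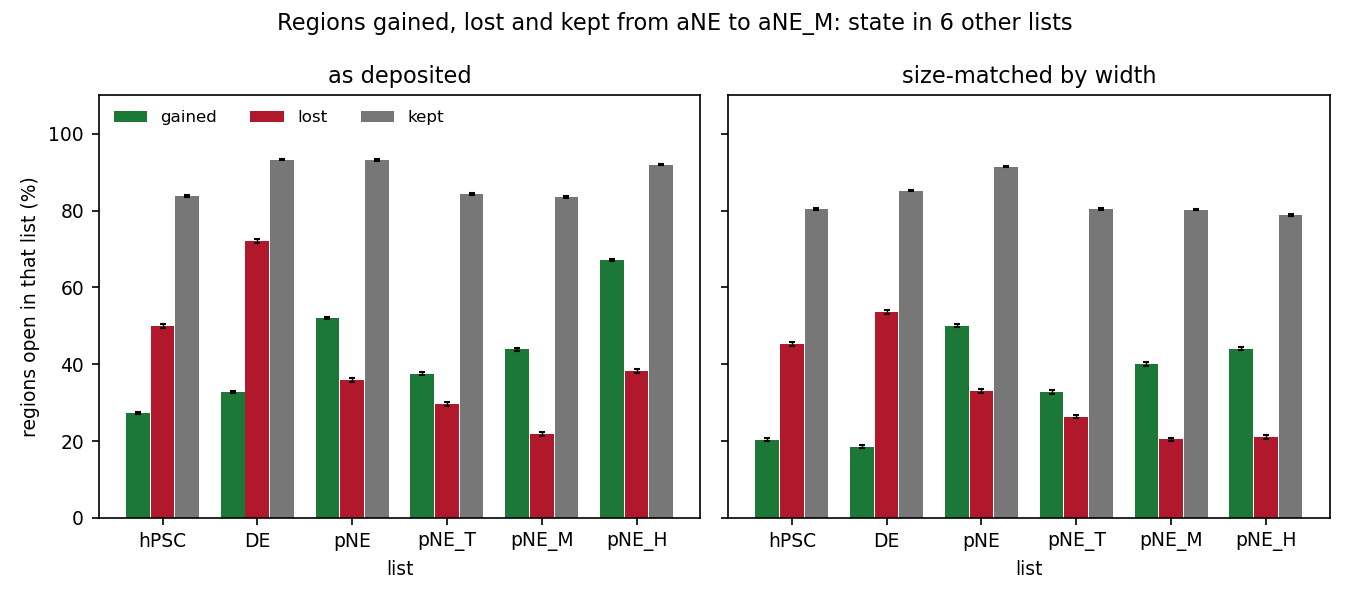
Percent of gained (green), lost (red) and kept (grey) regions that were open in 6 lists that took no part in the comparison, with the lists as deposited (left) and size-matched by width (right); bars carry Wilson 95% intervals. Lost regions stand above gained ones in hPSC and DE, and gained regions stand above lost ones in pNE and the 3 lists made from it.

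By their state in hPSC, DE and pNE, the gained regions fell into 3 sets. Of these lists, pNE is a parallel population of day 2 and not a forerunner of aNE_M. In 31192 of them (41.9%) a peak was present in hPSC or DE, absent from aNE and present in aNE_M. The aNE list is the shortest and its depth is unknown, so closing and a missed peak cannot be told apart. A further 19133 (25.7%) were open in pNE and in neither hPSC nor DE. The other 24174 (32.4%) were open in none of hPSC, DE and pNE, and 6117 regions (8.21%) were open in aNE_M alone of the 10 lists. Of the lost regions, 12344 (44.2%) had been open in both hPSC and DE, 7770 (27.8%) in DE and not hPSC, and 6217 (22.3%) in neither, while 2431 (8.70%) were open in aNE alone. At equal list size 34.3% of the lost regions were open in neither and 14.6% in aNE alone. For the gained regions, 29.4% were then open in hPSC or DE, and 38.4% in none of hPSC, DE and pNE.

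Peaks that came or went were narrow, and most lay clear of the other list's peaks. Of the gained regions 6462 (8.67%) lay within 500 bp of an aNE peak, and the median distance to one was 5291 bp. Of the lost regions 3783 (13.5%) lay within 500 bp of an aNE_M peak, at a median distance of 3259 bp. At the other side of the rule, 896 of the kept regions joined an aNE and an aNE_M peak that did not overlap each other but met through peaks of other lists. The median peak was 196 bp in gained regions and 195 bp in lost regions, against 371 bp (aNE) and 409 bp (aNE_M) in kept regions. Gained peaks covered 17.9 Mb and lost peaks 6.81 Mb, while kept regions held 66.1 Mb of aNE peaks and 70.3 Mb of aNE_M peaks. Among kept regions the wider peak was in aNE_M in 57.7% and in aNE in 41.9%. A peak at least 2 times as wide in aNE_M was found in 11713 kept regions, and one at least 2 times as wide in aNE in 6768. The wider members were more often open in the other lists. Of 6902 gained regions with a peak at least as wide as the median kept aNE_M peak, 85.6% were open in pNE and 41.7% in DE. Among all gained regions those shares were 52.0% and 32.8%. Of 3679 regions at least as wide as the median kept aNE peak, 92.4% were open in DE, 58.5% in pNE and 25.7% in pNE_M, beside 72.0%, 35.8% and 21.9% of all lost regions.

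Regions that changed were seldom at gene ends. A protein-coding gene end lay within 1 kb of 2.96% of gained (2.84 to 3.09), 3.79% of lost (3.57 to 4.02) and 13.5% of kept regions, and of 5.64% of all merged regions. Gained regions were the most distant from start sites, with a median of 105.8 kb to the nearest start site, against 73.9 kb for lost, 62.1 kb for kept and 88.2 kb for all merged regions. Start sites over 50 kb away were found for 68.2% of gained and 59.8% of lost regions. Protein-coding genes overlapped 48.9% of gained, 52.7% of lost, 55.7% of kept and 51.0% of all merged regions.

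Of the widest gained regions over 1 kb from any gene end, 4 show what such a site looks like across the series. The widest, a 1590 bp peak at chr1:221334894-221336483, lay 364.9 kb from DUSP10 and was open in pNE and in all 6 day 4 lists, and in neither hPSC nor DE. A 1525 bp peak at chr2:155765676-155767200 lay 557 kb from NR4A2, a nuclear receptor of midbrain dopaminergic neurons, and that region was open in every list except aNE. The others were a 1482 bp peak inside FAM181A at chr14:93926251-93927732 and a 1478 bp peak at chr13:54091626-54093103, both open in 8 lists. All 4 were open in pNE and absent from aNE.

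The 5 widest lost regions over 1 kb from any gene end were likewise open in several other lists. The widest was a 1608 bp peak at chr18:35826621-35828228, 114.8 kb from GALNT1, and it was followed by one of 1397 bp at chr19:27751885-27753281. The others were peaks of 1359 bp at chr13:39328616-39329974 near LHFPL6, of 1334 bp at chr1:233470671-233472004 near MAP3K21, and of 1302 bp inside KDM4A at chr1:43659821-43661122. All 5 were open in hPSC, DE, aNE, pNE and aNE_T, and none was open in aNE_M or aNE_H. Their absence from aNE_M follows from the definition of lost. The 4 gained regions above were open in pNE and aNE_T as well.

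Counted by the nearest gene end, gained regions were most numerous around very long genes. AUTS2, a nuclear regulator of neuronal development (chr7:69598475-70793506), had 116 gained, 24 lost and 125 kept regions, and 73 of its gained regions lay inside the gene. TENM3, a teneurin that guides neuronal wiring (chr4:181447613-182803024), had 103 gained and 32 lost. GPC5, a cell surface proteoglycan (chr13:91398621-92867237), had 96 gained and 12 lost, and ROBO1, the receptor of SLIT guidance cues (chr3:78597239-79767998), had 88 gained and 12 lost. The next 6 were LRRC4C with 87 gained and 16 lost, PTPRD with 77 and 20, PCDH9 with 76 and 11, SORCS1 with 72 and 21, DLG2 with 71 and 19, and LSAMP with 71 and 19. With lists of equal size gained regions still outnumbered lost ones at all 10, from 66 against 40 at AUTS2 to 40 against 33 at SORCS1, and 8 of the 10 genes were again among the 10 with most.

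Length goes with these counts. The 10 genes had a median length of 1270 kb, against 24.5 kb for all 19126 protein-coding genes. Inside genes under 10 kb long 11.4% of the open regions were gained and 5.96% lost, and the gained share was larger in each longer class, up to 41.5% inside genes over 1000 kb, where 11.8% were lost. In lists of equal size the gained share went from 6.78% to 29.0% over the same classes, and the lost share from 9.67% to 21.0%. Lost regions outnumbered gained ones up to 300 kb and gained regions outnumbered lost ones above it. By chromosome the gained share was lowest on chromosome 19, at 21.7%, and highest on chromosome 13, at 38.3%, and the lost share ran from 10.5% on chromosome 19 to 13.5% on chromosome 18.

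**Figure D2:**
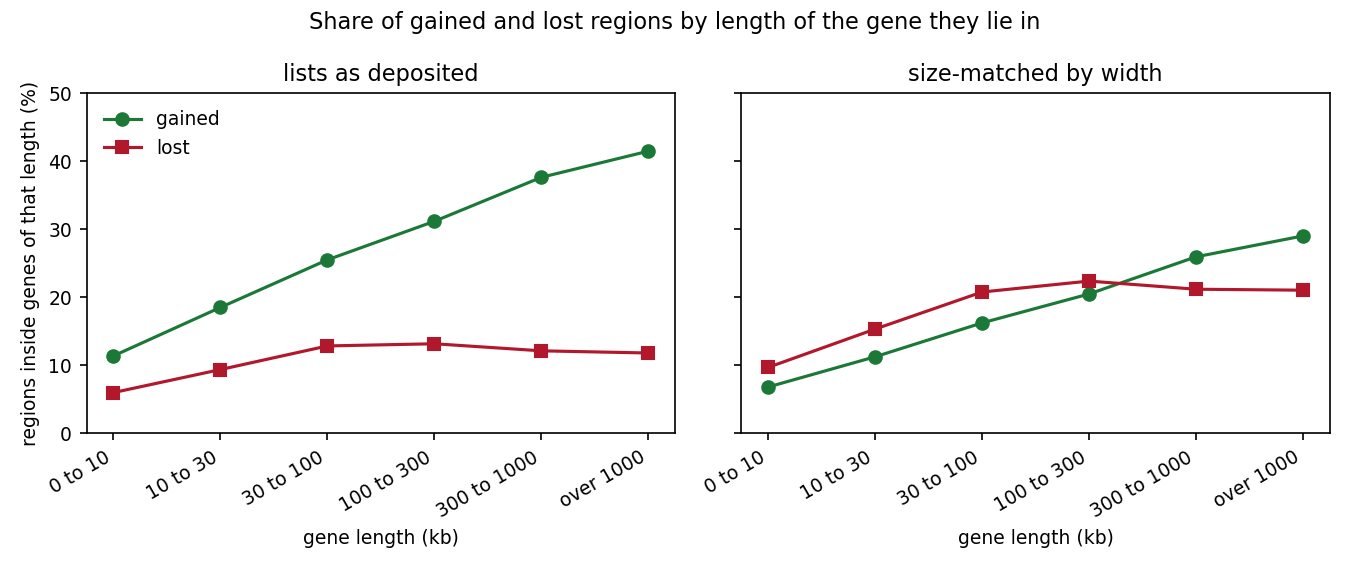
Percent of open regions inside protein-coding genes that were gained (green circles) or lost (red squares), by gene length in kb, with the lists as deposited (left) and size-matched (right). The gained share climbs with gene length in both panels, from 11.4% to 41.5% and from 6.78% to 29.0%.

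The aNE cells also entered telencephalon and hindbrain medium, and those comparisons share the aNE list with this one, so their values are set side by side without a test. From aNE to aNE_T there were 52364 gained and 23147 lost regions, and from aNE to aNE_H 70659 gained and 37739 lost. At equal list size these were 34829 and 32111 in aNE_T and 48564 and 47082 in aNE_H, beside 43178 and 41005 in aNE_M. GPC5 had 32 gained regions in aNE_T, 96 in aNE_M and 121 in aNE_H. PCDH9, a protocadherin, had 38, 76 and 102, and TENM3 had 53, 103 and 110. At equal list size GPC5 had 20, 62 and 86 gained regions, PCDH9 20, 42 and 68, and TENM3 32, 60 and 83. AUTS2 had 99, 116 and 89, and 68, 66 and 68 at equal list size. RBFOX1, a neuronal splicing regulator and the gene with most lost regions in aNE_M, had 29, 40 and 64 lost, beside 71, 61 and 43 gained, and 38, 59 and 77 lost beside 46, 37 and 28 gained at equal list size.

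**Figure D3:**
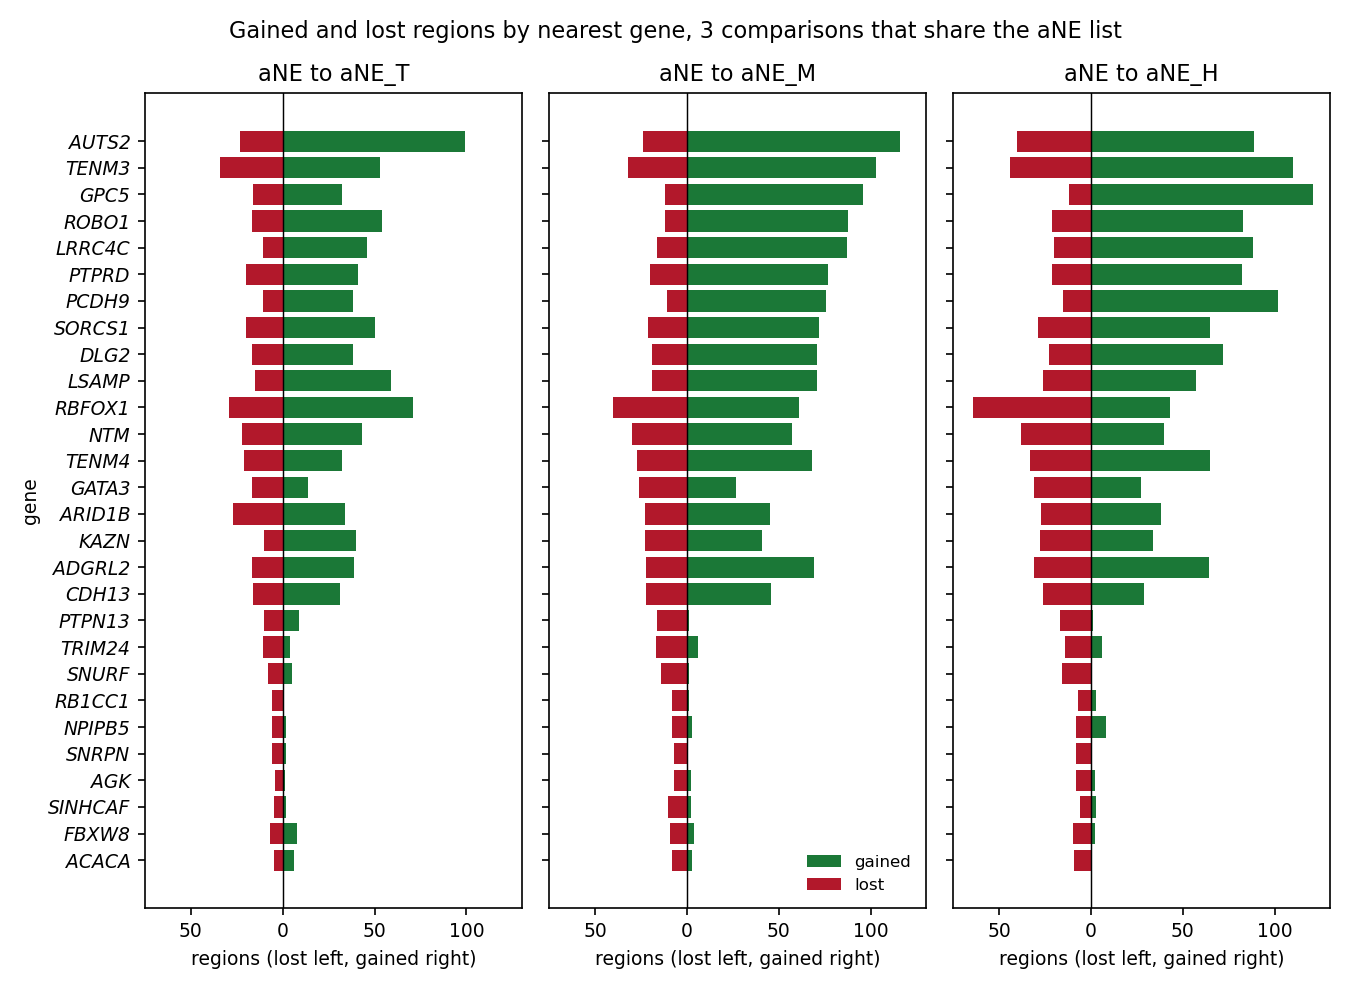
Regions gained (green, right of 0) and lost (red, left of 0) by nearest gene for the genes with most gained, most lost and the highest share of lost regions, in aNE_T, aNE_M and aNE_H against the same aNE list. Green bars at GPC5, PCDH9 and TENM3 are longer in aNE_M and aNE_H than in aNE_T. Bars at PTPN13, TRIM24 and SNURF are longer on the left than on the right in aNE_T, aNE_M and aNE_H. In aNE_T these genes had 10 lost and 9 gained, 11 and 4, and 8 and 5 regions.

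Genes with most lost regions were mostly long genes that had gained more. RBFOX1 had 40 lost and 61 gained regions, NTM 30 and 57, TENM4 27 and 68, and CDH13 22 and 46. The order turned at some of them at equal list size, where RBFOX1 had 59 lost and 37 gained regions, NTM 47 and 27, ARID1B 37 and 21, and KAZN 29 and 21, while TENM4 and CDH13 still had more gained than lost. GATA3 was the short gene among the 10, a zinc finger factor of early surface ectoderm and of midbrain and hindbrain neurons (chr10:8045333-8075198). It had 26 lost, 27 gained and 39 kept regions nearest to it, and with lists of equal size 32 lost and 20 gained.

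PTPN13 and TRIM24 lost most of the regions that lay nearest to them. Among 4484 genes with 15 or more regions open in either list, PTPN13, a tyrosine phosphatase (chr4:86594315-86815161), had 16 lost, 1 gained and 4 kept regions, and 15 of the lost ones lay inside the gene. TRIM24, a chromatin reader (chr7:138460259-138589996), had 17 lost, 6 gained and 3 kept. Around PTPN13, with 50 kb on either side, 25 regions were open in aNE and 28 in aNE_T, but 14 were open in aNE_M and 15 in aNE_H. Around TRIM24 the number went from 27 in hPSC and 26 in DE to 19 in aNE, 7 in aNE_M and 3 in pNE_M. SNURF had 14 lost, 1 gained and 9 kept regions and SNRPN 7, 0 and 8. These 2 genes overlap on chromosome 15, in an imprinted locus, so their regions come from 1 place. Around SNURF 16 regions were open in hPSC, 17 in DE, 14 in aNE, 6 in aNE_M and from 3 to 9 in the other 6 lists of day 2 and day 4. The remaining genes of this ranking were RB1CC1, NPIPB5, AGK, SINHCAF, FBXW8 and ACACA. They had from 7 to 10 lost regions and from 1 to 4 gained, and NPIPB5 belongs to a family of near-identical copies whose peaks are uncertain.

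The highest shares of gained regions were at genes with few kept ones. TTC29 had 28 gained, 0 lost and 12 kept regions, ITGA8, an integrin subunit, 21, 0 and 10, and AGMO, an ether lipid enzyme, 15, 0 and 5. ZSWIM2, HMHB1, COLEC10, AVPR1A, LOC112267897, KLF10 and FERD3L, a helix-loop-helix factor of the ventral midbrain, completed the 10, with 11 to 27 gained and 0 or 1 lost. Their size-matched counts were 5 to 17 gained and 0 to 2 lost.

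Around named genes, regions were counted inside each gene and within 50 kb of either end. Across all 19126 protein-coding genes, 67.3% had more gained than lost regions and 16.3% more lost than gained, with 26.5% of the regions gained and 12.1% lost. With lists of equal size the balance was the reverse, at 30.6% and 48.7% of genes. A list of genes is read against those levels.

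Genes of the midbrain and isthmus as a list stood close to the level of all genes. Of 24 genes, 18 had more gained than lost regions and 3 more lost than gained, and 26.4% of the regions were gained and 10.7% lost. Once size-matched, 10 had more gained and 9 more lost. Expression was not measured here, so the midbrain label could not be checked against transcripts. The list held separate patterns. The PAX2, PAX5 and PAX8 genes, whose products share 1 DNA-binding type and act at the isthmus, all gained more than they lost. PAX8 had 12 gained, 0 lost and 19 kept regions, and 9 gained and 0 lost in lists of equal size. PAX2 had 15 gained, 4 lost and 21 kept, and 12 and 5 when size-matched. PAX5 had 9, 7 and 31, and 8 and 9 when size-matched, so its balance changed sign with list size.

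The widest gained site at each of these PAX genes was closed in hPSC and DE. The gained region with a 1014 bp peak at chr2:113212116-113213190, 2.73 kb from PSD4 and within 50 kb of PAX8, was open in pNE, aNE_T, aNE_M, aNE_H, pNE_M and pNE_H. A 928 bp peak inside PAX5 at chr9:36858746-36859706 belonged to a region open in pNE, aNE_M, aNE_H and pNE_M. Inside PAX2, a 374 bp peak at chr10:100802398-100802997 belonged to a region open in pNE, aNE_M, aNE_H and pNE_H.

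Genes of the isthmus signals did not share a direction. WNT1 had 1 gained, 2 lost and 16 kept regions, and 0 gained and 5 lost when size-matched. FGF8 had 3, 3 and 9, and 3 of each when size-matched, and FGF17, a relative of FGF8, had 5, 2 and 10, and 5 gained and 4 lost when size-matched. Of the engrailed genes, EN2 had 2, 0 and 13 and EN1 7, 5 and 11. EN1 had 3 gained and 6 lost regions in lists of equal size. A gained peak of 546 bp lay 1.39 kb from FGF8 at chr10:101768078-101768716. A lost peak of 374 bp lay inside WNT10B, upstream of WNT1, at chr12:48969155-48969569. OTX2 had 7 gained, 2 lost and 10 kept regions, but with the upper 50% of peaks by width its gained regions less its lost ones came to -2. Its widest gained peak, 676 bp, lay inside the gene at chr14:56808255-56809529, and that region was open in hPSC, pNE and all 6 day 4 lists and closed in DE and aNE. LMX1A, a factor of midbrain dopaminergic progenitors and the roof plate, had 12 gained, 3 lost and 27 kept, and 5 gained and 4 lost when size-matched.

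WNT pathway genes had a gained share somewhat above that of all genes, like the neural progenitor list below. Of 19 genes, 18 had more gained than lost regions, none had more lost, and 1 (NOTUM) had 2 of each. Of their regions 30.6% were gained and 9.11% lost, beside 26.5% and 12.1% for all genes. In the neural progenitor list the shares were 29.2% and 11.2%. With lists of equal size 9 genes had more gained and 5 more lost, beside the 30.6% and 48.7% of all genes. The gained share was then 20.6%, beside 17.0% for all genes and 20.25% in the neural progenitor list. Several of these WNT pathway genes are over 100 kb long. Inside all genes of 100 to 300 kb, 20.5% of regions were gained at equal size. The part of gene length was not tested. LEF1, the WNT-responsive DNA-binding partner of beta-catenin, had 15 gained, 0 lost and 20 kept regions. LGR5, a receptor of R-spondins that heightens WNT signalling, had 14, 0 and 8, and AXIN2, the feedback inhibitor, had 8, 0 and 15. Size-matched counts of gained and lost regions were 9 and 1 at LEF1, 5 and 1 at LGR5 and 8 and 2 at AXIN2.

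In the other media, against the same aNE list, LEF1 had 5 gained and 0 lost regions in aNE_T and 18 and 3 in aNE_H. AXIN2 had 4 and 1 in aNE_T and 9 and 0 in aNE_H, and LGR5 had 8 and 0 in aNE_T and 13 and 0 in aNE_H. When size-matched, gained and lost counts in aNE_T and aNE_H were 4 and 3 and 10 and 4 at LEF1, 4 and 1 and 9 and 0 at AXIN2, and 5 and 1 and 9 and 1 at LGR5, so LGR5 had the same counts in aNE_T as in aNE_M. The LEF1 gene held a 279 bp peak at chr4:108051434-108051712 that was open in aNE_M alone. Upstream of the gene, a 356 bp peak at chr4:108185115-108185470 was open in aNE_M and pNE_H. Near AXIN2, a 452 bp peak at chr17:65592706-65593650 belonged to a region open in aNE_M, aNE_H and pNE_M. NKD1, with 14 gained and 5 lost regions, had 4 and 9 when size-matched. TCF7L1, a TCF factor that represses targets, had 11 gained and 5 lost, and 7 and 6 when size-matched. SP5, a direct WNT target, had 6 and 1, and its lost peak was the wider one at 862 bp.

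**Figure D4:**
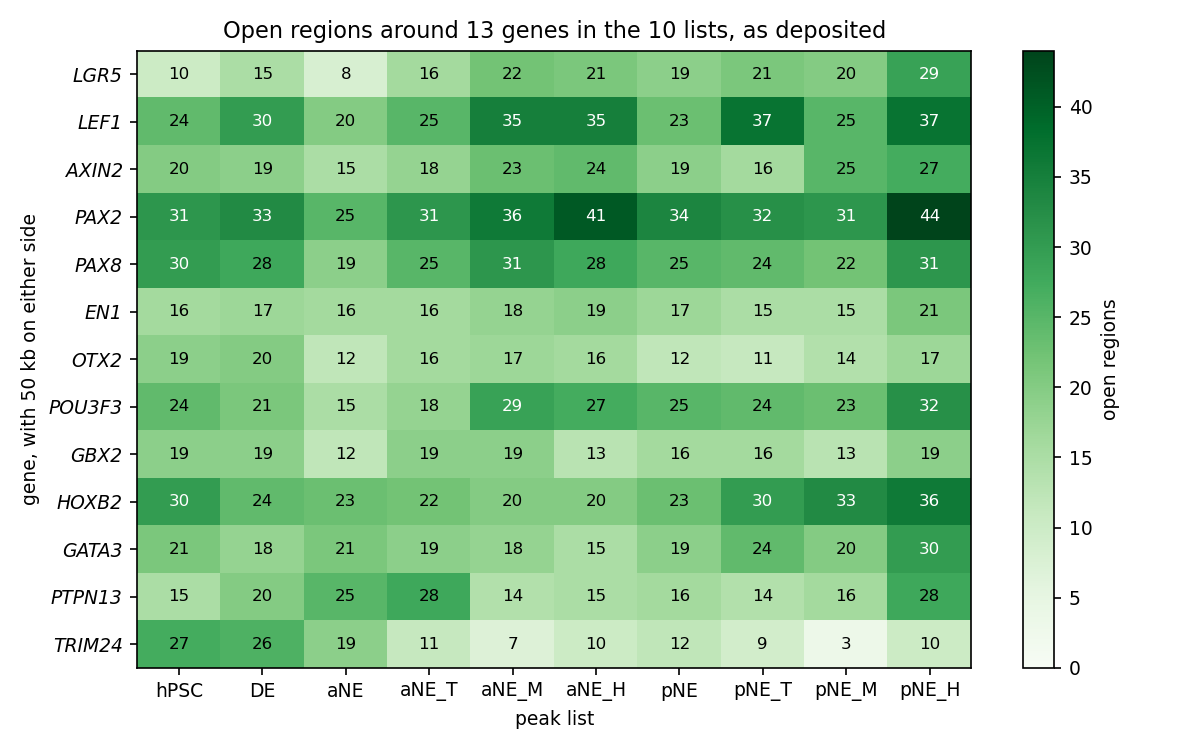
Number of open regions within 50 kb of 13 genes (rows) in each of the 10 lists as deposited (columns), with darker green for more regions. LGR5 goes from 8 in aNE to 22 in aNE_M and TRIM24 from 19 to 7; pNE_H, the longest list, has the highest number, alone or shared, at every gene shown except OTX2 and TRIM24.

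Across the lists, single genes followed different courses. Around LGR5 8 regions were open in aNE, 16 in aNE_T, 22 in aNE_M and 21 in aNE_H, while hPSC had 10 and DE 15. LEF1 had 20 in aNE, 25 in aNE_T, and 35 in both aNE_M and aNE_H. Around POU3F3, a neural POU factor, aNE had 15, aNE_T 18, aNE_M 29 and aNE_H 27. For OTX2, DE had 20, aNE 12 and aNE_M 17. These counts are from the lists as deposited, of which aNE is the shortest. It held 162041 peaks, beside 238994 in DE, 191380 in aNE_T, 211358 in aNE_M and 196961 in aNE_H. At equal list size OTX2 had 3 gained and 2 lost regions from aNE to aNE_M. The part of list length in these courses was not tested.

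Hindbrain genes were split with the lists as deposited. Of 22 genes, 10 had more gained and 10 more lost regions, with 23.4% gained and 13.1% lost. Size-matching gave 8 genes with more gained and 14 with more lost. The 10 with more gained were mostly genes outside the HOX clusters. EGR2, a factor of rhombomeres 3 and 5, had 7 gained, 1 lost and 8 kept regions. GBX2 had 11, 4 and 8, with 6 gained and 5 lost when size-matched, and a difference of -1 with the upper 50% of peaks by width. The HOX genes lay on the other side. HOXB2 had 3 gained, 6 lost and 17 kept, HOXB3 3, 6 and 24, and HOXB1 4, 5 and 15. The windows of neighbouring HOX genes overlap, so these counts repeat the same regions. HOXD3 had 4 gained and 3 lost regions and HOXD4 3 of each, and both had 2 gained and 4 lost when size-matched. Around HOXB1 the widest lost peaks were 515 bp at chr17:48503612-48504184, 24.3 kb outside the gene, in a region closed in hPSC, aNE_M and aNE_H, and 507 bp inside HOXB3 at chr17:48551996-48553149, in a region closed in DE and in all 3 lists that followed from aNE. Around HOXB2, 30 regions were open in hPSC, 24 in DE, 23 in aNE and in pNE, 20 in aNE_M, 33 in pNE_M and 36 in pNE_H.

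The forebrain list gained regions near the level of all genes, and the neural progenitor list somewhat above it. In the forebrain and eye field list 17 of 21 genes had more gained regions and 2 more lost, with 24.2% of regions gained, and with lists of equal size 6 had more gained and 10 more lost. LHX2 had 12 gained, 3 lost and 16 kept regions. HESX1, an early forebrain repressor, had 3, 5 and 9, and RAX, of the eye field, had 0, 2 and 10. In the neural progenitor list 17 of 22 had more gained and 2 more lost, with 29.2% of regions gained, and 9 and 9 when size-matched. POU3F3 had 14 gained, 0 lost and 15 kept regions and kept that balance at 10 and 1 when size-matched. SOX2, the factor shared by pluripotent and neural cells, had 5, 3 and 16, but 3 gained and 5 lost when size-matched. ZIC1 had 8, 2 and 15, and 6 gained and 3 lost when size-matched.

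Pluripotency genes as a list stood at the level of all genes. Of 22 genes, 14 had more gained and 6 more lost, with 25.5% of regions gained and 12.9% lost, and 7 and 9 genes when size-matched. The 6 with more lost included POU5F1 with 1 gained, 3 lost and 4 kept and PRDM14 with 1, 4 and 10. NANOG itself had 6 gained and 2 lost regions within 50 kb, although 1 of those lost was the region over its start, and 3 of each when size-matched. Around NANOG 19 regions were open in hPSC, 11 in DE, 8 in aNE and 12 in aNE_M.

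Signalling and other cell type lists lay near the background. Of 16 FGF feedback genes, 11 had more gained and 4 more lost regions, with 27.7% of regions gained, and SPRED1, an inhibitor of RAS signalling, had 12 gained, 2 lost and 5 kept. Of 16 genes of the BMP and NODAL response, 10 had more gained and 2 more lost. Markers of other cell types that the cultures could hold did the same, with 8 and 3 of 14 for neural crest, 12 and 2 of 14 for surface ectoderm, 12 and 1 of 14 for mesendoderm and 12 and 1 of 15 for proneural and neuronal genes. Housekeeping genes had 13 and 3 of 19. With lists of equal size the gained share was 15.7% for surface ectoderm, 16.0% for mesendoderm, 17.2% for neural crest and 17.0% for all genes. In these bulk samples a change in the number of cells of a type and a change in each cell cannot be told apart.

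The list of neural cadherins, guidance receptors and adhesion molecules stood furthest from the level of all genes, and its genes are long. All 26 had more gained than lost regions, and 42.6% of their regions were gained and 11.0% lost, beside 26.5% and 12.1% of all. After size-matching 23 had more gained and 1 (UNC5D, a netrin receptor with 11 gained and 10 lost regions as deposited) more lost, with 30.9% of regions gained beside 17.0%. UNC5C, its relative, had 28 gained, 2 lost and 19 kept regions, NLGN1, a synaptic adhesion molecule, 35, 6 and 24, and CDH6, a type II cadherin, 17, 3 and 11. The part of gene length in this was not tested. In aNE_T, against the same aNE list, UNC5C had 19 gained and 3 lost regions, and in aNE_H 29 and 4. CNTNAP2, a neurexin relative, had 17 gained and 18 lost in aNE_T, 51 and 15 in aNE_M, and 40 and 20 in aNE_H. At equal list size its counts were closer, at 12 and 27, 31 and 23, and 26 and 25 in the same order.

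**Figure D5:**
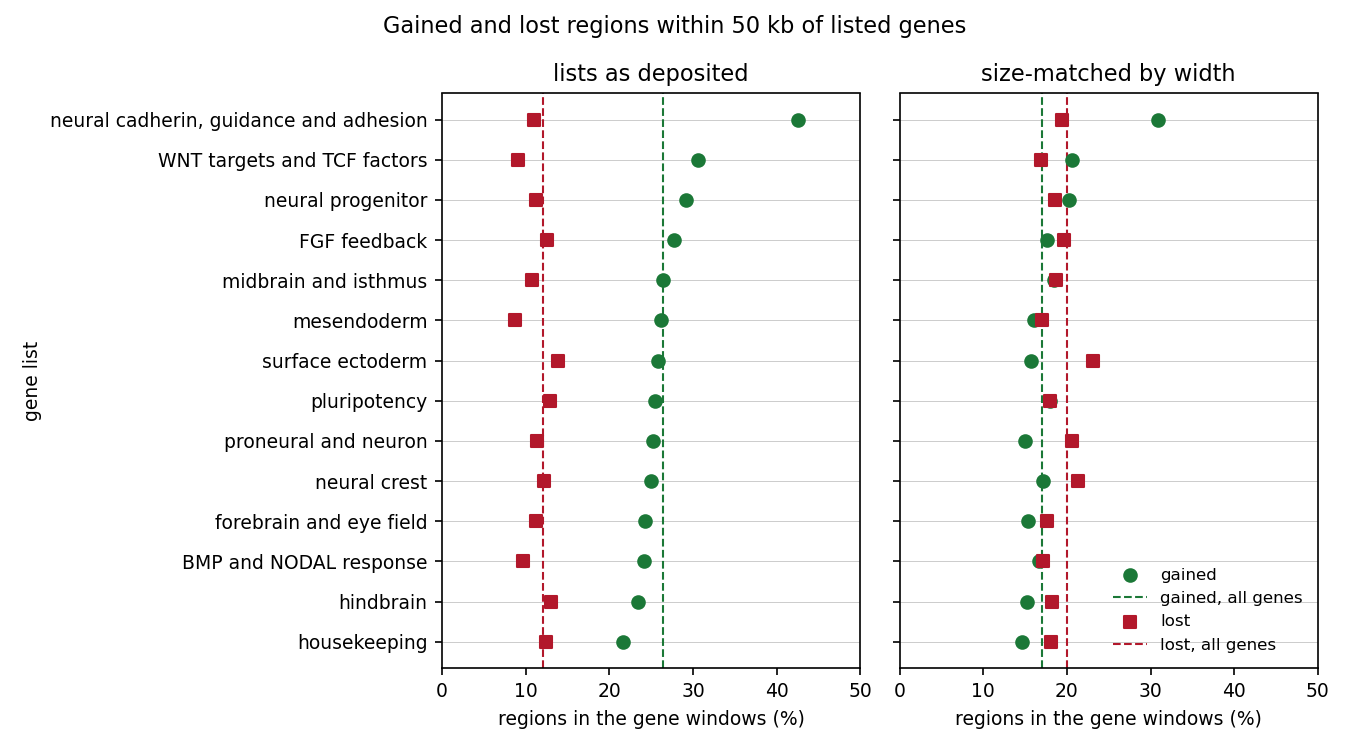
Percent of the regions within 50 kb of the genes of 14 lists that were gained (green circles) or lost (red squares), with the lists as deposited (left) and size-matched (right); dashed lines give the same over all protein-coding genes. The adhesion list stands at 42.6% gained against 26.5% of all, and at 30.9% against 17.0% when size-matched; the midbrain list sits at 26.4%.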

How the data were processed

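The labels give OmniATAC-seq of H1 cells in 10 groups with 3 replicate libraries each. The deposited values are peak positions, 1 list of chromosome, start and end per group, and how replicates were combined is not given in the sources used here. The submitters' processing notes name the build hg38 and FastQC, Bowtie2, MACS2, bedtools, featureCounts, edgeR and deepTools, with no role or version. No test was run, since the lists hold no counts. Regions were merged and counted with Python 3.11.15, numpy 2.4.6, pandas 2.3.3 and scipy 1.17.1 on chromosomes 1 to 22, and the merging was checked on simulated peaks. Genes and start sites are those of RefSeq (GRCh38.p14), with 19126 protein-coding genes and start sites for 15101. Of 257 listed genes 254 were found on these chromosomes. Depth is unknown. Named genes are the 10 with most gained and lost regions, the 10 with the highest shares among genes with 15 or more regions, and listed genes. Named regions are the 5 widest of each kind over 1 kb from gene ends, and the widest in listed windows; some of these are not reported here. The comparison, gene lists and motifs were chosen with earlier results of these data known. The 9 alternative settings changed list size, merging, what counts as open, peak width, distance from genes and gene windows. Motif content of the regions was not analysed here, for want of a genome.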

Additional observations from a re-analysis of the deposited data

Results flagged for a closer look

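Chromosome X was outside the comparison, which used chromosomes 1 to 22, and its regions changed too. Of 7707 regions of chromosome X open in aNE or aNE_M, 2444 (31.7%) were gained, 1024 (13.3%) were lost and 4239 (55.0%) were kept, beside 32.9% gained and 12.3% lost on the other chromosomes used. No control list bears on these counts and no replicate values were at hand, so the difference was not tested.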

How the results depend on the processing

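No paired analysis was possible because each list pools its group and its columns carry no replicate numbers; for the same reason no replicate could be left out. The search of whole peaks for motifs was not run, because no genome was at hand. Against 74499 gained, 27939 lost and 124311 kept regions (Jaccard index 0.548, regions open in both lists over regions open in either), size-matching gave 43178 gained and 41005 lost, and an index of 0.569. The upper 50% of peaks by width gave 38214 gained, 14556 lost and 64459 kept. Counting a list as open only where its peaks cover 50% of a region gave 72488 kept and an index of 0.397. The index was 0.530 with regions made from the aNE and aNE_M peaks alone, 0.561 with 500 bp at midpoints, 0.520 over 1 kb from gene ends and 0.557 without peaks under 200 bp. The share of gained regions open in pNE (52.0%) was 50.0% when size-matched, 51.3% by upper width, 51.4% with the 2 lists alone, 45.4% by coverage, 53.6% at midpoints and 51.5% without narrow peaks. The share of lost regions open in DE (72.0%) was 53.7%, 73.8%, 70.6%, 66.5%, 74.1% and 67.9% under the same settings in that order. The share of gained regions within 1 kb of a gene end (2.96%) was 3.79% by upper width, 3.11% with 2 lists alone, 3.49% by coverage, 3.60% at midpoints and 3.20% without narrow peaks. The cause of these moves was not tested. Of 619 single-gene differences between gained and lost regions under the alternatives, 337 stayed within the 1.5-fold margin, 250 moved and 32 changed sign. These differences do not cover every listed gene. Within 50 kb, size-matching also turned MYT1L from 21 gained and 15 lost to 10 and 23, and GATA4 from 6 and 3 to 3 and 8. Among all protein-coding genes, those with more gained than lost regions went from 67.3% to 30.6%. Counted by nearest gene end, size-matching turned the difference to -22 at RBFOX1, -20 at NTM, -16 at ARID1B, -12 at GATA3 and -8 at KAZN. Counted within 50 kb, it turned the difference to -5 at NKD1 and UNC5D, -3 at EN1, -2 at HOXD3 and SOX2 and -1 at PAX5. Within 50 kb GATA3 had 4 gained and 7 lost regions already as deposited. The upper 50% by width turned it to -4 at UNC5D, -2 at KAZN and OTX2, -1 at GBX2 and NANOG, 1 at HESX1 and RAX and 2 at FBXW8, HOXA2, HOXA3 and DNMT3B. Coverage of 50% turned it to -3 at NANOG, -2 at UNC5D, 1 at HOXA3 and 3 at DNMT3B. UNC5D was at -1 with the 2 lists alone and without narrow peaks, and HOXA3 at 1 over 1 kb from gene ends and 2 without narrow peaks. At GATA3 it was -1 both with 500 bp at midpoints and with regions inside the gene alone.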
